A study of Mus musculus with 12 samples.

Results

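Of the 6 CD11b libraries of this mouse hippocampus series, 3 held RNA of the choroid plexus epithelium at a high level and 3 did not, and the values below describe the programme that these 3 libraries carried and the microglial transcripts it stood beside. The libraries were divided on a single readout, the share of the library's counts held by Ttr, the gene of transthyretin. Libraries with Ttr above 1% of all counts are called Ttr-rich (GFP-316, GFP-317 and A2A-325, 3 of 6) and those below it Ttr-poor (GFP-319, A2A-321 and A2A-322, 3 of 6), named by vector and library number. Nothing lay near the limit, since the lowest Ttr-rich library held 2.80% and the highest Ttr-poor library 0.00726%. The whole series holds 12 libraries, the other 6 being of the ACSA-2 fraction. Because the libraries were selected on Ttr, every difference between Ttr-rich and Ttr-poor libraries is given as a description with no test.

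All libraries came from C57Bl6/J mice injected bilaterally in the CA1 of the hippocampus at 2 months of age with an AAV2/9 vector and sorted 2 months later, at 4 months. In the AAV-A2A groups the vector carried the A2A receptor (A2AR) and in the AAV-GFP control groups it carried GFP, both behind the astrocyte-selective promoter GfaABC1D, so every animal carried a virus and microglia were not the cells targeted. Dissociated left and right hippocampi were depleted of myelin, passed over beads against ACSA-2, an astrocyte surface antigen, and the unbound cells were then passed over beads against CD11b, a microglia and myeloid surface protein. There were 3 libraries per vector and fraction, and the split crossed the vectors, with 2 AAV-GFP and 1 AAV-A2A libraries on the Ttr-rich side and 1 AAV-GFP and 2 AAV-A2A libraries on the Ttr-poor side.

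The choroid plexus is a folded sheet of cuboidal epithelium that lies in the ventricles, surrounds a core of fenestrated capillaries and stroma, and secretes the cerebrospinal fluid. A choroid plexus lies along the edge of the hippocampus in the lateral ventricle, and its epithelium is not a cell type of the hippocampal parenchyma. Its cells export transthyretin and other carrier and growth factor binding proteins into the fluid, move sodium, chloride, bicarbonate and water across their apical and basolateral membranes, and import folate, vitamin A and thyroid hormone from the blood. Microglia, the cells that the CD11b beads were meant to hold, are the resident macrophages of the parenchyma.

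The CD11b libraries had 36098295 to 53206974 counts each, so a gene at 1 CPM (counts scaled to a library total of 1000000) rested on 36.1 counts or more. The 10 astrocyte markers held 2.54 to 3.69% of the counts of the ACSA-2 libraries and at most 0.0505% of those of any CD11b library. The 25 microglial markers held 2.92, 5.94 and 5.38% of the counts of GFP-316, GFP-317 and A2A-325 and 15.2, 14.2 and 10.4% of those of GFP-319, A2A-321 and A2A-322, and 2.27 to 3.21% of those of the ACSA-2 libraries, a range in which GFP-316 lay although it is labelled CD11b. Ttr was the most abundant gene of GFP-316 and GFP-317, Enpp2 of A2A-325, Cst3 of GFP-319 and A2A-321, and Csf1r of A2A-322. More genes had at least 1 count in the Ttr-rich libraries (23034 to 25603) than in the Ttr-poor libraries (20394 to 21091), and rank correlations of CPM across 16949 genes were 0.912 to 0.973 among the Ttr-rich, 0.931 to 0.969 among the Ttr-poor and 0.79 to 0.896 between the classes.

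The programme was carried nearly in full, as judged on a list chosen with earlier results of these data known. A list of 53 genes of the choroid plexus epithelium held 14.4, 10.9 and 7.91% of the counts of GFP-316, GFP-317 and A2A-325 and 0.0635, 0.0512 and 0.0645% of those of GFP-319, A2A-321 and A2A-322. The lowest Ttr-rich library thus stood 122.6 times above the highest Ttr-poor one, and the ACSA-2 libraries lay between them at 0.273 to 0.383%. Without Ttr and Enpp2, which dominate the sum, the other 51 genes held 2.65, 1.84 and 2.07% against 0.0517, 0.0424 and 0.0625%, so that the classes remained 29.5 times apart at their nearest.

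**Figure D1:**
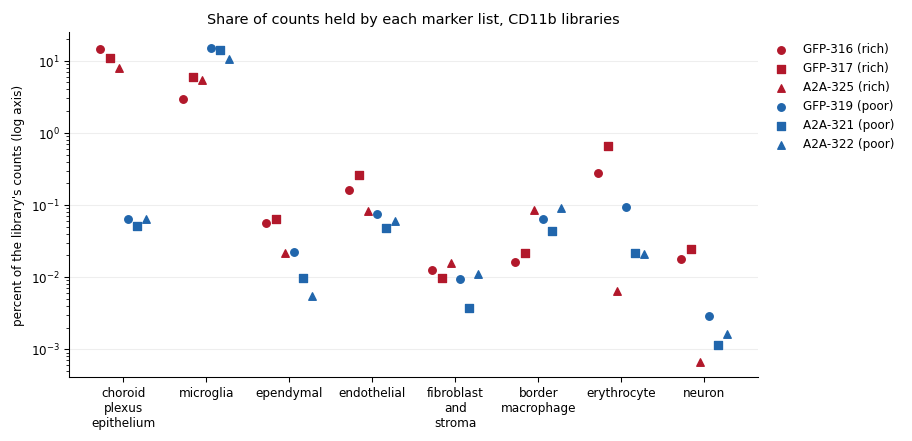
Percent of each CD11b library's counts (log axis) held by 8 marker lists, with red symbols for the Ttr-rich and blue symbols for the Ttr-poor libraries, 1 symbol per library. The choroid plexus list sits at 7.91 to 14.4% in red and at most 0.0645% in blue, the microglial list at 2.92 to 5.94% in red and 10.4 to 15.2% in blue, and the erythrocyte and neuron lists are high in GFP-316 and GFP-317 and lowest in A2A-325.

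Gene by gene, 51 of the 53 members were higher in all Ttr-rich than in all Ttr-poor libraries and none was lower in all. Over all 16949 genes tested, 20.6% were higher without overlap and 13.5% were lower. Within AAV-GFP and within AAV-A2A libraries taken alone, 52 of 53 were higher. The share of all genes for this is not given here, but their median log2 difference was 0.02 and 0.10 in the 2 vectors. All 53 members passed the filter on low counts, which the Ttr-rich libraries alone can satisfy, so passing it is no support for the list. Only 31 of them had at least 10 counts in every CD11b library. The median difference of mean log2 CPM between the classes, after TMM normalization, was 8.11 over the list and 0.06 over all genes tested, and 42 of the 53 members differed by at least 5 on the log2 scale, which 2.39% of all genes tested did. TMM set this scale 0.20 below that of plain totals, on which the median of all genes was 0.26. Levels are given in plain CPM throughout and log2 differences after TMM. Fewer cells of a type and less RNA per cell cannot be told apart in such bulk libraries.

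The 6 genes that define the programme were separated by wide margins, Ttr by construction. Ttr (ENSMUSG00000061808, on chromosome 18), the carrier of thyroxine and of retinol-binding protein, was at 80536, 64058 and 27988 CPM in GFP-316, GFP-317 and A2A-325 and at 72.6, 50.5 and 4.93 CPM in GFP-319, A2A-321 and A2A-322. Enpp2 (ENSMUSG00000022425, chr15:54838901-54952892 in GRCm38), which encodes autotaxin, the secreted enzyme that makes lysophosphatidic acid, was at 36763, 26858 and 30365 CPM against 45, 37.9 and 15.5 CPM in the same order of libraries. Folr1 (ENSMUSG00000001827, chr7:101858331-101870788), the folate receptor that carries folate across the epithelium, was at 1433, 999 and 584 CPM against 6.35, 5.32 and 3.38 CPM. In each of these the lowest Ttr-rich library was above the highest Ttr-poor library, by 385, 597 and 92 times respectively.

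Kl (ENSMUSG00000058488, chr5:150952607-150993817) encodes klotho, the co-receptor of fibroblast growth factor 23. Its level was 904, 572 and 2184 CPM in GFP-316, GFP-317 and A2A-325 and 0.263, 1.27 and 0.332 CPM in GFP-319, A2A-321 and A2A-322. Clic6 (ENSMUSG00000022949, chr16:92485736-92541243), an intracellular chloride channel family member, was at 943, 545 and 1063 CPM against 4.27, 1.46 and 0.0277 CPM. The inward rectifier potassium channel gene Kcnj13 (ENSMUSG00000079436, chr1:87386363-87394729) was at 1448, 1113 and 637 CPM against 2.55, 1.99 and 0.388 CPM. Kl and Clic6 were highest in A2A-325, whereas Ttr, Folr1 and Kcnj13 were lowest in it among the Ttr-rich libraries. The log2 differences of the 6 genes were 10.76 for Ttr, 9.82 for Enpp2, 7.39 for Folr1, 10.73 for Kl, 9.83 for Clic6 and 9.38 for Kcnj13.

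**Figure D2:**
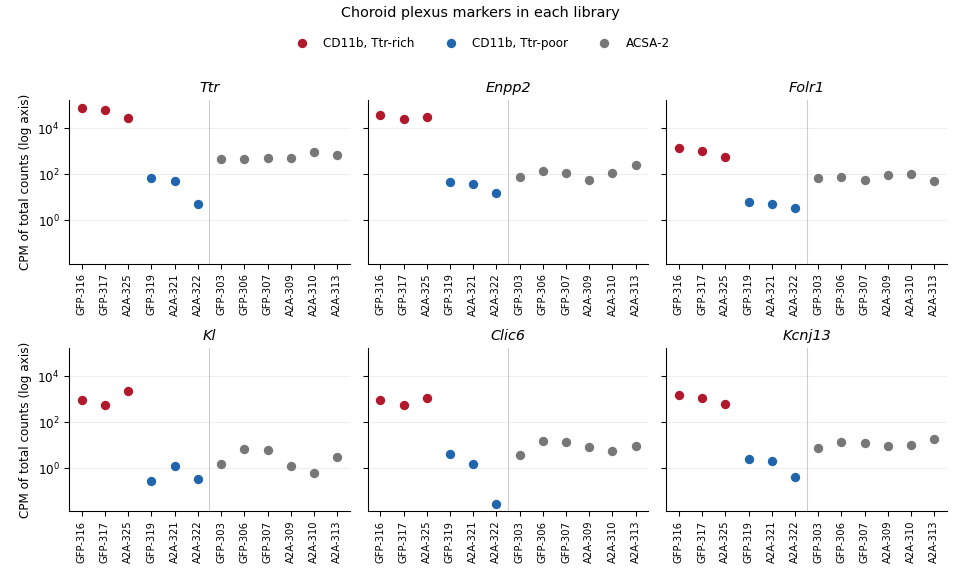
CPM of total counts (log axis) of the 6 genes in each of the 12 libraries, 1 point per library, with Ttr-rich CD11b libraries in red, Ttr-poor in blue and ACSA-2 in grey. Red points lie above every blue and grey point in each of the 6 panels, and Ttr in the ACSA-2 libraries (456 to 926 CPM) lies above its level in the Ttr-poor CD11b libraries (4.93 to 72.6 CPM).

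Secreted proteins took most of the counts of the programme. The 6 genes of this role held 12.2, 9.52 and 6.06% of the counts of GFP-316, GFP-317 and A2A-325 against 0.0184, 0.0108 and 0.00377% of those of GFP-319, A2A-321 and A2A-322, and all 6 were higher without overlap. Beside Ttr and Enpp2 they are Igfbp2, which binds insulin-like growth factors, at 1179 to 2205 CPM against 11.1 to 41.9 CPM, Sostdc1, an antagonist of BMP and Wnt ligands, at 455 to 1282 CPM against 1.77 to 2.03 CPM, 1500015O10Rik, which encodes the secreted peptide augurin, at 554 to 1514 CPM against 2.41 to 21.2 CPM, and the growth factor Igf2 at 23.1 to 49.5 CPM against 0.958 to 1.67 CPM. Per kilobase of exon, the level of Ttr (67906, 54012 and 23598 CPM per kb in GFP-316, GFP-317 and A2A-325) was well above that of Enpp2 (6361, 4648 and 5254 CPM per kb), although A2A-325 had more counts on Enpp2.

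Ion and water transport was the role with the most members, and 16 of its 18 genes were higher without overlap. The role held 0.92, 0.596 and 0.852% of counts in GFP-316, GFP-317 and A2A-325 and 0.0203, 0.0226 and 0.0394% in GFP-319, A2A-321 and A2A-322. Trpm3, a cation channel of the TRP family, was at 1656, 828 and 1257 CPM against 1.91, 0.383 and 1.02 CPM. Kcne2, a potassium channel subunit, was at 716, 755 and 246 CPM against 1.96, 0.311 and 0.194 CPM. The bicarbonate side of the programme was present as transporters and enzymes alike, with Slc4a5 at 176, 84.6 and 331 CPM against 0.0716, 0.0479 and 0 CPM and the carbonic anhydrase Car12 at 417, 264 and 617 CPM against 0.215, 0.287 and 0.914 CPM. Aqp1, the water channel of the apical membrane, was at 107, 70.7 and 125 CPM against 0.525, 0.144 and 0 CPM.

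The 2 transport genes that did not separate were Slc12a2 and Slc26a11. Slc12a2, the sodium, potassium and chloride cotransporter NKCC1, was at 249, 141 and 479 CPM in GFP-316, GFP-317 and A2A-325 and at 56.8, 67.6 and 199 CPM in GFP-319, A2A-321 and A2A-322, the highest Ttr-poor library lying inside the Ttr-rich range. The anion transporter gene Slc26a11 was at 9.32 to 12.3 CPM and 9.39 to 12.4 CPM, with a log2 difference of -0.17 after TMM and 0.03 on plain totals.

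Uptake of vitamins and solutes was represented by 8 genes, all higher without overlap. Slco1c1, a transporter of thyroid hormone that is also present in brain endothelium and astrocytes, was at 1157, 960.2 and 691 CPM against 76.3, 52.7 and 90.9 CPM and at 319.9 to 594 CPM in the ACSA-2 libraries. Stra6, the receptor of retinol-binding protein, was at 128 to 204 CPM against 4.17 to 6.68 CPM and Rdh5, a retinol dehydrogenase, at 296 to 667 CPM against 4.12 to 6.3 CPM. Slco1a5, an organic anion transporter, had no count in any Ttr-poor library and 20.02 to 28.6 CPM in the Ttr-rich libraries, at least 241-fold higher when each Ttr-poor library is set at a floor of 3 counts.

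Of the 7 roles, the receptors had the widest edge in summed level. Beside Kl, the prolactin receptor gene Prlr was at 1272, 764 and 576 CPM in GFP-316, GFP-317 and A2A-325 and at 0.429, 0.311 and 0 CPM in GFP-319, A2A-321 and A2A-322. The serotonin receptor gene Htr2c, whose transcript is abundant in choroid plexus epithelium, was at 256, 122 and 126 CPM against 0.0239, 0.359 and 0.0277 CPM. All 3 genes of the role were separated, and their sum was 751 times higher in the lowest Ttr-rich library than in the highest Ttr-poor one.

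Junction and cytoskeleton genes of an epithelium were all present, with 6 of 6 higher without overlap. Cldn2, a claudin that forms cation-permeable and water-permeable tight junctions, was at 578, 436 and 470.1 CPM against 4.56, 1.08 and 0.443 CPM. Ezr, which links apical microvilli to actin, was at 897, 533 and 689 CPM against 57.1, 41.2 and 42.8 CPM. The simple epithelial keratins Krt8 and Krt18 were at 41.6 to 93.2 and 204 to 522 CPM against 0.766 to 2.03 and 3.75 to 4.69 CPM. Ezr was well above 0 in the Ttr-poor libraries and higher still in the ACSA-2 libraries, at 234 to 493 CPM.

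Transcription factors of the epithelium were separated in 4 of 4 cases. Msx1, a homeobox factor of the dorsal midline, was at 551, 383 and 289 CPM in GFP-316, GFP-317 and A2A-325 and at 8.56, 8.89 and 4.71 CPM in GFP-319, A2A-321 and A2A-322. Otx2, the homeobox factor that choroid plexus development and maintenance need, was at 399, 232 and 175 CPM against 3.75, 1.77 and 0.0277 CPM. Lmx1a, a factor of the roof plate from which the choroid plexus arises, was at 22.5 to 32 CPM against 0 to 0.264 CPM, and Foxj1, the regulator of motile cilia, at 29.4 to 35.7 CPM against 5.2 to 7.21 CPM. Foxj1 had the smallest difference of the 4, 2.24 on the log2 scale.

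Otx2 protein binds a TAATCC core, and the promoter windows of the members were searched for these letters on both strands (GGATTA on the other strand). RefSeq promoter windows of GRCm38.p6, each of 300 bases from 250 before to 50 after a transcript start, were matched by symbol for 42 of the 53 members, with 60 windows in all. The letters were found in 6 of the 60 windows (10%), from 6 genes, Abca4, Car14, Igf2, Mfrp, Otx2 and Vat1l, and in 7.06% of all 32851 windows. The windows of Kl and Kcnj13, the 2 of the 6 defining genes matched in the table, had no match, and are shown with those of Car14, a carbonic anhydrase, and Otx2, which had one. They are written 5′ to 3′ on the strand of the gene, with the match in capitals. They lie at chr5:150952357-150952656, plus strand, chr1:87394680-87394979, minus strand, chr3:95904636-95904935, minus strand and chr14:48665060-48665359, minus strand, in that order.
Kl: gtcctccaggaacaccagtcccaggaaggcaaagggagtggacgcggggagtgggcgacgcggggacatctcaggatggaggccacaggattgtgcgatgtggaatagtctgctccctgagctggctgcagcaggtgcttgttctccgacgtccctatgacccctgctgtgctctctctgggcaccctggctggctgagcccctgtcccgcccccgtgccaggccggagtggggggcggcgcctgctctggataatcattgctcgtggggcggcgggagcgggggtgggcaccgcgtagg
Kcnj13: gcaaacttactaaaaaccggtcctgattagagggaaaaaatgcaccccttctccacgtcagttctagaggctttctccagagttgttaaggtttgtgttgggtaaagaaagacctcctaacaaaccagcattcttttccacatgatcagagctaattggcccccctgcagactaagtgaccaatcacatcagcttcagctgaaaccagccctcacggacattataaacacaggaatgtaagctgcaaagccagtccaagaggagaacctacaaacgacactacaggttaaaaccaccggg
Car14: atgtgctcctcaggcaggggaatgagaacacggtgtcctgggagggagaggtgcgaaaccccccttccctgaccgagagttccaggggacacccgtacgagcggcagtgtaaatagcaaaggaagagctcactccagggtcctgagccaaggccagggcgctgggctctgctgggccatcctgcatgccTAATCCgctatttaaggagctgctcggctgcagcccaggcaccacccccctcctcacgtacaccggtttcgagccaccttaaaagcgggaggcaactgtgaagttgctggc
Otx2: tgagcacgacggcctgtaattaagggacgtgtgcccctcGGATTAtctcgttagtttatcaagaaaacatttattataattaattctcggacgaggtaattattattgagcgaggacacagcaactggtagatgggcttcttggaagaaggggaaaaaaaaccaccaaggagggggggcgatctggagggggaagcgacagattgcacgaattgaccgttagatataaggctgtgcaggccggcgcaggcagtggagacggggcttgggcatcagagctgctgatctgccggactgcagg

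Of the 8 other markers of the list, all were higher without overlap. Cab39l, which encodes a scaffold of the kinase STK11, was at 824, 521 and 700.2 CPM in GFP-316, GFP-317 and A2A-325 and at 34.2, 34.1 and 35.4 CPM in GFP-319, A2A-321 and A2A-322. Steap1, a metalloreductase family gene, was at 392, 237 and 169 CPM against 1.22, 1.15 and 0.166 CPM. Mfrp, at 5.89 to 13.1 CPM, was the other member with no count in any of the 3 Ttr-poor libraries, and was at least 70.9-fold higher against the floor of 3 counts per library.

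Some genes outside all lists also had a wide edge between the classes. Of 30359 gene identifiers counted in CD11b, 715 had a lowest Ttr-rich library at least 4 times the highest Ttr-poor library (after adding 0.5 CPM). In 23541 the classes overlapped. Of the 715, 48 were on the choroid plexus list and none on any other list. The unlisted genes named next were chosen for their edge. Among the 20 unlisted genes with the widest gap, Col9a3, a collagen chain, was the most abundant, at 2006, 1062 and 1593 CPM in GFP-316, GFP-317 and A2A-325 and at 3.2, 4.12 and 4.74 CPM in GFP-319, A2A-321 and A2A-322. Mapk4, an atypical MAP kinase gene, was at 1230.2, 664 and 384 CPM against 2.41, 2.73 and 3.21 CPM, and in the ACSA-2 fraction it was at 1765 to 2165 CPM in AAV-GFP libraries, above every Ttr-rich library, and at 359.7 to 580.8 CPM in AAV-A2A libraries. Atp1b1, the beta subunit of the sodium pump that drives fluid secretion, was at 763, 499 and 399.5 CPM against 7.25, 6.2 and 5.82 CPM. The imprinted gene Mest was at 156 to 293 CPM against 0.637 to 0.91 CPM, and Sulf1, which removes sulphate groups from heparan sulphate, at 239.6 to 762 CPM against 1.8 to 3.55 CPM.

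The other 15 of these 20 genes ranged from 23.7 to 48.8 CPM for Igfn1 to 299 to 624 CPM for the amino acid transporter gene Slc7a10 in the Ttr-rich libraries. Oca2, Sult1c2 and Igfn1 had no count in the Ttr-poor libraries, and were at least 761, 325.3 and 285-fold higher against the floor of 3 counts per library. The remaining 12 were Strip2, Steap2, 2900040C04Rik, Wfdc2, Pcolce2, Prr32, Epn3, Wdr86, Sema3b, Hs6st2 and Npr3 with, in the Ttr-poor libraries, at most 2.05 CPM each, and Slc7a10 with at most 4.24 CPM. Slc7a10 was at 632 to 946 CPM in the ACSA-2 libraries, above its level in every Ttr-rich library. Wfdc2 encodes a secreted protease inhibitor of epithelia and Npr3 the clearance receptor of natriuretic peptides.

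The Ttr-poor libraries were not empty of the list. In them 20 of the 53 members had a mean under 1 CPM, and 32 did not exceed 5 CPM in any of the 3. The 8 members whose mean there reached 30 CPM were Ttr, Enpp2, Slc4a2, Slc12a2, Slc31a1, Slco1c1, Ezr and Cab39l. Slc12a2 and Slc4a2, a chloride and bicarbonate exchanger gene, were highest there in A2A-322, at 199 and 79.0 CPM, the library with the least Ttr (178 counts). Across the 3 Ttr-poor libraries the summed level of the list did not follow Ttr, at 0.0635, 0.0512 and 0.0645% with Ttr at 0.00726, 0.00505 and 0.000493% in GFP-319, A2A-321 and A2A-322.

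In the ACSA-2 libraries, 27 of the 53 members were above every Ttr-poor CD11b library and 50 were below every Ttr-rich one. The shares of all genes that did so are not given here, so these 2 counts stand without a background. The fractions also hold different cells. Ttr was at 456 to 926 CPM and Enpp2 at 58.9 to 247 CPM in the ACSA-2 libraries. The members that overlapped the Ttr-rich libraries included Foxj1 at 10.7 to 59.2 CPM and Slc26a11 at 8.01 to 18.6 CPM. Levels set across fractions come from separate count tables and are shares of each library's own total.

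Over the 6 ACSA-2 libraries, which the split did not use, the other 5 defining genes did not track Ttr detectably. Pearson's r of log2 CPM with Ttr was 0.51 for Enpp2 (exact permutation p = 0.329), 0.19 for Folr1 (exact permutation p = 0.717), -0.46 for Kl (exact permutation p = 0.344), -0.19 for Clic6 (exact permutation p = 0.724) and 0.38 for Kcnj13 (exact permutation p = 0.435), all two-sided, n = 6. Adjusted over the 5 relations every p was 0.724. Spearman's rho was 0.14, 0.03, -0.54, -0.26 and 0.20 in the same order (exact permutation p = 0.803, 1.0, 0.297, 0.658 and 0.714, adjusted p = 1.0 for each). Without the 2 libraries farthest from the median of Ttr, A2A-310 and A2A-313, r was -0.27, -0.42, -0.04, 0.26 and 0.02. Within a vector there were 3 libraries, too few for a correlation, and Ttr was 456 to 926 CPM over both, with 456, 458 and 537 CPM in AAV-GFP and 540.2, 926 and 727 CPM in AAV-A2A libraries. Libraries of both vectors were pooled above, so r, rho and p mix co-variation with any difference between the vectors.

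Over all 12 libraries the genes with the pattern most like Ttr were Kcnj13 (r = 0.99), Prlr (0.98), Tmem237 (0.98), Nsg2 (0.98), Serinc2 (0.98), Ociad2 (0.98), Steap1 (0.97), Folr1 (0.97), Lbp (0.97) and Bsg (0.97), by Pearson's r of log2 CPM among 11632 genes averaging 5 CPM or more. Of these 10, Kcnj13, Prlr, Steap1 and Folr1 are on the list, as are 22 of the first 100 genes, and 50 of all 11632 genes ranked (0.43%) are list members. The ranking is by likeness to the gene on which the libraries were divided. The libraries fall into 3 clusters, so these values describe the order of the clusters and carry no p.

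Microglial transcripts were lower where the programme was carried. The 25 microglial markers held 2.92, 5.94 and 5.38% of the counts of GFP-316, GFP-317 and A2A-325, which is 0.22, 0.448 and 0.406 of the mean of the Ttr-poor libraries, and 15.2, 14.2 and 10.4% of those of GFP-319, A2A-321 and A2A-322. None of the 25 was higher and 18 were lower without overlap, against 20.6% and 13.5% of all genes tested. All 25 were lower within AAV-GFP and within AAV-A2A libraries taken alone, where all genes tested had medians of 0.02 and 0.10. The median log2 difference of the 25 was -1.81, with a range of -2.14 to -1.32. In these class means the members thus differed from one another by less than 1 on the log2 scale, while the choroid plexus members spanned -0.17 to 11.84. The fall was not uniform, with medians of -2.17 within AAV-GFP and -1.36 within AAV-A2A libraries. Single libraries also differed more, the log2 ratio of A2A-325 to GFP-316 and GFP-317 being -0.73 for Cst3 and 2.94 for Tgfbr1.

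Cst3, which encodes cystatin C and was the most abundant microglial marker, was at 8874, 18986 and 7839 CPM in GFP-316, GFP-317 and A2A-325 and at 36577, 27794 and 13343 CPM in GFP-319, A2A-321 and A2A-322. Its level in A2A-322 lay inside the Ttr-rich range. P2ry12, the purinergic receptor of homeostatic microglia, was at 1159, 2089.9 and 1765 CPM against 6006, 6239.8 and 4573 CPM. Tmem119, a membrane protein that marks microglia, was at 1043, 2085 and 2583 CPM against 6671, 6336 and 6149 CPM. Both were lower in each Ttr-rich than in each Ttr-poor library, by 2.19 and 2.38 times at the nearest.

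The 7 markers whose classes overlapped were Csf1r, Tgfbr1, Mertk, Slco2b1, Itgam, Cst3 and Tyrobp. Csf1r, the receptor on which microglia depend, was at 1551, 2821 and 9082 CPM in GFP-316, GFP-317 and A2A-325 and at 7366, 10137 and 18570.2 CPM in GFP-319, A2A-321 and A2A-322. Itgam, which encodes CD11b itself, was at 27.9, 55.3 and 175 CPM against 100.2, 144 and 298 CPM. In both genes A2A-325 stood above GFP-319, and A2A-322 stood highest.

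Genes were next grouped by the width of their edge and their counts summed beside those of the microglial list. The direction of each group's difference between the classes follows from this grouping. The 715 genes with the widest edge held 21.1, 15.3 and 12.5% of the counts of GFP-316, GFP-317 and A2A-325, and the list supplied 67.7, 71.1 and 62.1% of that. With these genes left out of the total, the microglial list held 3.70, 7.01 and 6.16% of the remaining counts in the Ttr-rich libraries and 15.3, 14.2 and 10.46% in GFP-319, A2A-321 and A2A-322. A further 865 genes with an edge of at least 2 and under 4 times held 4.11 to 6.09% against 0.965 to 1.13%, and 3394 genes with a smaller edge held 10.1 to 14.4% against 5.08 to 5.63%. On the other side, 1803 genes that were lower by under 2 times held 11.8 to 19.2% of counts in the Ttr-rich and 31.6 to 38.5% in the Ttr-poor libraries. A final 41 genes lower by at least 2 times held 0.69 to 1.45% against 3.37 to 3.997%. Transcripts that microglia share with other cells fall in the groups with a small edge or none, so the amount of RNA from other cells was not measured by these sums.

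**Figure D3:**
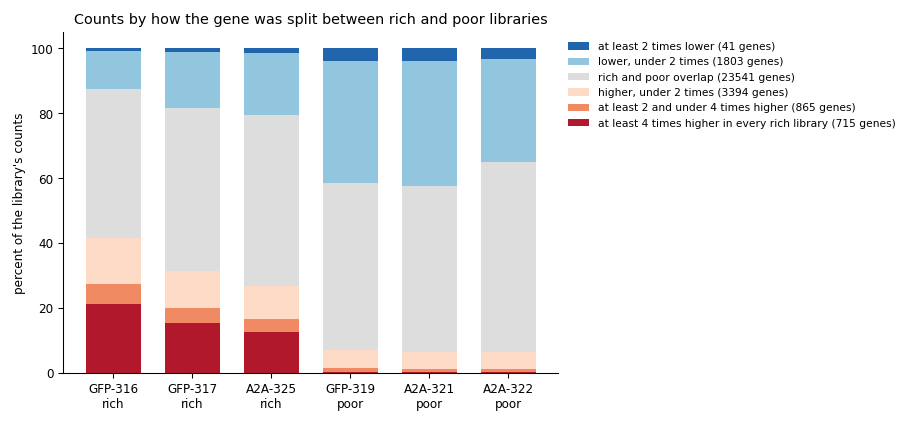
Percent of each CD11b library's counts held by genes grouped by the edge between the lowest library of the higher class and the highest library of the lower class, stacked to 100%. The 3 red-toned groups together fill 26.7 to 41.6% of the Ttr-rich bars and 6.36 to 7.12% of the Ttr-poor bars, and the 2 blue-toned groups fill 12.5 to 20.7% and 34.97 to 42.4%. The direction of these differences follows from how the groups were formed.

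Genes lower in the Ttr-rich libraries had narrower edges than those that were higher. Among unlisted genes the widest was that of Adam3, at 1.05 to 1.67 CPM in the Ttr-rich and 5.37 to 5.98 CPM in the Ttr-poor libraries, 3.21 times apart at the nearest. Marcks, a substrate of protein kinase C that is abundant in microglia, was at 216, 348 and 238 CPM in GFP-316, GFP-317 and A2A-325 and at 857, 1124 and 1204 CPM in GFP-319, A2A-321 and A2A-322. Gna15, a G protein subunit gene of blood cells, was at 118, 250.0 and 258 CPM against 639, 679 and 565 CPM. The other 7 of these 10 genes, 1700001C19Rik, Glrp1, Tlr9, Gdf9, Cmip, C130050O18Rik and Igf2bp2, were 2.29 to 3.13 times lower at the nearest, and Tlr9, the receptor of unmethylated DNA, was at 1.82 to 2.86 CPM against 7.56 to 8.3 CPM.

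Markers of the other cells that a choroid plexus or the hippocampus holds did not share one pattern. The ependymal list, of ciliated cells that line the ventricle, was higher without overlap in 6 of 10 genes, and its most abundant gene, Rsph1, a component of the ciliary radial spoke, was at 244, 219 and 101 CPM in GFP-316, GFP-317 and A2A-325 and at 44.4, 22.5 and 11 CPM in GFP-319, A2A-321 and A2A-322. Yet Ccdc153 and Tmem212 of the same list overlapped, at 8.98 to 109 and 5.94 to 76.9 CPM against 8.64 to 51.2 and 5.49 to 44.6 CPM. Of 10 endothelial genes, 2 were higher without overlap, Slco1a4 and Plvap, a share like the 20.6% of all genes tested. Plvap, the diaphragm protein of fenestrated capillaries, was at 39.1, 38 and 21.8 CPM against 3.72, 5.53 and 5.46 CPM. The most abundant endothelial gene, Itm2a, was at 126 to 734 CPM against 92.9 to 150.1 CPM and overlapped.

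For the remaining lists, counts of 1 or 2 genes are near the background, in which 20.6% of all genes tested were higher and 13.5% lower without overlap. Of 6 fibroblast and stroma genes, 1 was higher without overlap, Lum, a small proteoglycan, at 34.5, 24.4 and 13.6 CPM against 5.32, 4.84 and 4.07 CPM, and the most abundant, Dcn, overlapped at 30.3 to 56 CPM against 8.12 to 33.3 CPM. None of 11 border macrophage genes was separated in either direction, and Stab1, the most abundant, was at 83.6, 142 and 547 CPM against 368, 202 and 741 CPM. None of 8 mural genes was higher without overlap, and 2, Kcnj8 and Vtn, were lower, Vtn at 457 to 544 CPM against 709.6 to 1368 CPM. Of the monocyte and neutrophil list 2 of 8 were lower without overlap, among them Ngp, its most abundant gene, at 15.4 to 56.5 CPM against 63.1 to 166 CPM. Of the astrocyte list 1 of 10 was higher and 1 lower, the latter being Slc1a3 at 69.2 to 113 CPM against 153 to 219 CPM. Oligodendrocyte genes went both ways, with 3 of 8 higher and 2 lower, and their most abundant gene, Cnp, was lower at 64.9 to 104 CPM against 130.0 to 153 CPM.

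Erythrocyte and neuron markers were high in the 2 Ttr-rich AAV-GFP libraries and not in the Ttr-rich AAV-A2A library. The erythrocyte list held 0.279, 0.665 and 0.00634% of the counts of GFP-316, GFP-317 and A2A-325 and 0.093, 0.0213 and 0.0212% of those of GFP-319, A2A-321 and A2A-322, and A2A-325 was lowest of all 6. Hbb-bs, a beta-globin gene with the near-identical neighbour Hbb-bt, was at 1352, 3811 and 32 CPM against 493, 94.2 and 77.1 CPM. The neuron list held 0.0177, 0.0248 and 0.000671% against 0.00287, 0.00115 and 0.00163%, with its most abundant gene, the kinase Camk2a, at 87.1, 117 and 1.13 CPM against 4.99, 1.68 and 7.06 CPM. Both GFP-316 and GFP-317 stood above the other 4 libraries in 5 of 6 erythrocyte, 8 of 11 neuron, 7 of 10 endothelial, 6 of 10 ependymal and 20 of 53 choroid plexus genes, and in 26.2% of all genes tested. Transcripts of the mitochondrial genome were likewise 1.69 and 1.15% of counts in GFP-316 and GFP-317, 0.184% in A2A-325 and 0.18 to 0.216% in the Ttr-poor libraries. The part of these transcripts in the comparisons of the vectors was not tested.

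Within the Ttr-rich libraries the make-up of the programme was not constant. Relative to GFP-316 and GFP-317, A2A-325 had less Ttr, Kcne2, 1500015O10Rik and Sostdc1, with log2 ratios of CPM of -1.36, -1.58, -1.44 and -1.30, and more Abca4, F5, Slc4a2 and Kl, with 1.90, 1.73, 1.62 and 1.60. Enpp2, at -0.05, and Trpm3, at 0.10, were level. The ratio went with the exonic length of the gene, with a Spearman rho of 0.70 over the 53 genes. The 17 members with up to 2.86 kb of exon had a median of -0.86 and the 18 with at least 5.72 kb a median of 0.78. Trpm3 and Prlr, with 24.4 and 15.3 kb, did not follow the trend, Prlr being at -0.77.

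Microglial markers had the same slant in the same library, and in a Ttr-poor library too. Over the 25 microglial markers the rho with exonic length was 0.79 for A2A-325 against GFP-316 and GFP-317, and 0.72 for A2A-322 against GFP-319 and A2A-321. Over 16934 tested genes with a known length it was 0.40 and 0.39. The 9 longest microglial markers, those with at least 4.34 kb, had a median log2 ratio of 2.12 in A2A-325 and 1.07 in A2A-322, and the 8 shortest 0.11 and -0.98. For GFP-319 and A2A-321, each against the other 2 Ttr-poor libraries, rho over the microglial markers was -0.72 and -0.64. Over all tested genes it was -0.36 and -0.17. The contrasts among the Ttr-poor libraries cancel out for each gene, so a slant in A2A-322 brings opposite slants elsewhere. The points of each relation share their libraries, so rho is a description with no p.

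**Figure D4:**
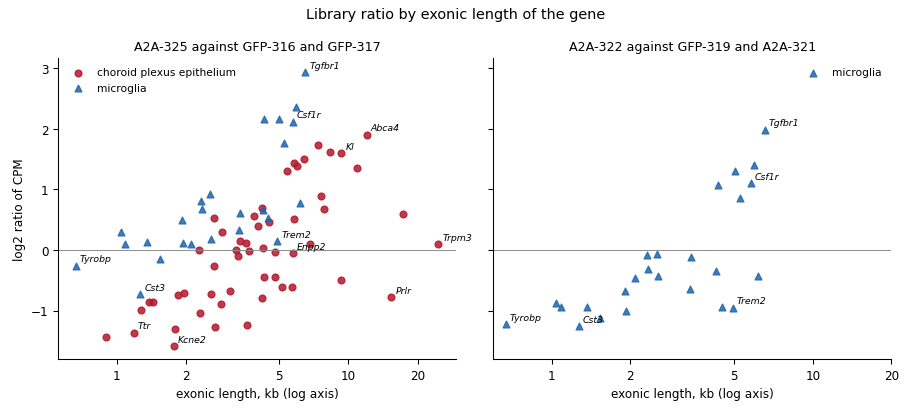
Log2 ratio of CPM against exonic length (kb, log axis), 1 point per gene, for A2A-325 against the mean of GFP-316 and GFP-317 (choroid plexus genes as circles, microglial markers as triangles) and for A2A-322 against the mean of GFP-319 and A2A-321 (microglial markers). The points slope upward, with a Spearman rho of 0.70 for the choroid plexus genes and 0.79 for the microglial markers in the first panel and 0.72 in the second, and Trpm3, the longest choroid plexus gene, lies off the slope at 0.10.

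The comparison of the vectors, AAV-A2A against AAV-GFP in the CD11b fraction, asks how the receptor in astrocytes affects microglia, and the split lies across it. With edgeR's quasi-likelihood test and Benjamini-Hochberg adjustment over all genes, 0 of 16949 genes were called (0%), with 2704 at an unadjusted p under 0.05. Called means an adjusted p under 0.05 and a log2 fold change (FC) beyond 0.32. None of the 53 choroid plexus genes was called and 0 had an unadjusted p under 0.05, with 43 lower in AAV-A2A and a median log2 FC of -0.92, against -0.05 over all genes tested. Each vector holds both Ttr-rich and Ttr-poor libraries, so these genes vary widely within each vector. The list's counts and median, and the values of Ttr and Kl below, thus largely restate the division by Ttr. DESeq2 called 502 genes and 0 of the list. Ttr had a log2 FC of -2.26 ± 2.84 (SE, n = 3 per vector, edgeR adjusted p = 0.718) and Kl one of 0.68 ± 2.83 (SE, n = 3 per vector, edgeR adjusted p = 0.919), which turned to -8.94 without A2A-325. Each library is labelled as a separate sample, and p-values measure the spread between these libraries.

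Which libraries entered decided the size of these estimates. Without A2A-325, the sole Ttr-rich AAV-A2A library, the median log2 FC of the list was -7.43, with 51 of 53 genes lower in AAV-A2A, 47 of 53 at an unadjusted p under 0.05 (18.1% of all genes tested were) and none called by edgeR. That fit sets 2 Ttr-rich and 1 Ttr-poor AAV-GFP libraries against 2 Ttr-poor AAV-A2A libraries, so its counts for the list largely restate the division by Ttr. Without GFP-316 the median was -0.11, without GFP-317 -0.77, without GFP-319 -1.55 and without A2A-321 or A2A-322 -0.41, with 0 of 53 at an unadjusted p under 0.05 in each. When the class of the library entered the fit as a further term, 0 genes were called and 3834 had an unadjusted p under 0.05 (21.0% of those tested). Of the list, 12 of 53 did (22.6%), with a median log2 FC of -0.17 and 27 genes lower in AAV-A2A. The class in that fit was set by Ttr in these same libraries, so its values for the list are a description.

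**Figure D5:**
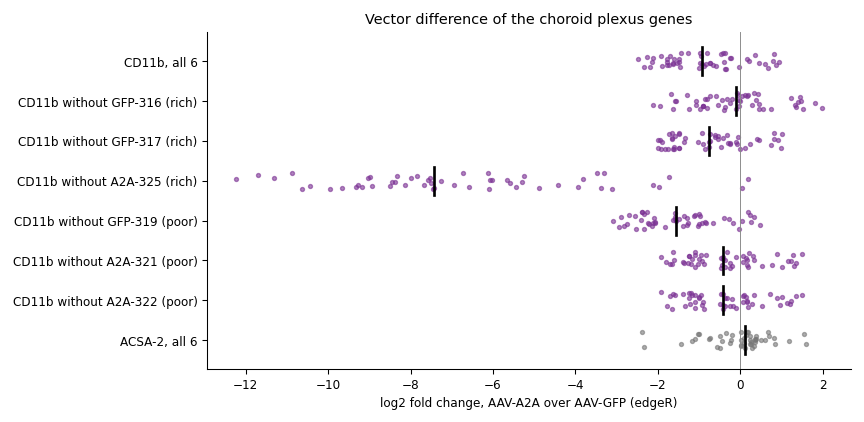
Log2 FC of AAV-A2A over AAV-GFP by edgeR for the choroid plexus genes, 1 point per gene, with the median as a black bar, for the CD11b fraction with all 6 libraries and with each left out, and for the ACSA-2 fraction. The median is -0.92 with all CD11b libraries, -7.43 without A2A-325, between -1.55 and -0.11 without any other library, and 0.13 in ACSA-2.

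In the ACSA-2 fraction edgeR called 553 of 16451 genes (3.36%), and of 48 choroid plexus genes tested it called 1, Trpm3, while 7 had an unadjusted p under 0.05 (14.6%, against 13.01% of all genes tested). Leaving out 1 library lowered the count of all genes called to 272 (without GFP-306), 295 (without A2A-310), 330.0 (without A2A-313), 341 (without GFP-307), 390.0 (without GFP-303) or 448 (without A2A-309). Trpm3 was at 83.5, 68.7 and 68.2 CPM in the AAV-GFP and at 42.8, 42.4 and 25.5 CPM in the AAV-A2A libraries, which did not overlap. It decreased by 1.03 ± 0.22 (log2 FC, SE, n = 3 per vector, edgeR adjusted p = 0.0372), but lost the call when any 1 of the 6 libraries was left out (adjusted p of 0.085 to 0.118). Trpm3 is also expressed by astrocytes, and most of the list's genes were low in this fraction. Ttr had a log2 FC of 0.59 ± 0.22 (SE, n = 3 per vector, edgeR adjusted p = 0.262), with A2A-310 and A2A-313 above every AAV-GFP library and A2A-309 (540.2 CPM) beside GFP-307 (537 CPM).

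The vector difference itself was compared between the fractions by an interaction term in edgeR over all 12 libraries, which called 75 of 18602 genes (0.403%) and 0 of the 53 choroid plexus genes, of which 0 had an unadjusted p under 0.05. For the list this too largely restates the division of the CD11b libraries by Ttr. Whether libraries of the 2 fractions came from the same animals is not given in the sources used here. They entered the fit as independent samples, and an animal shared between fractions would bear on its SE and p. DESeq2 called 1721 genes and 0 of the list. With edgeR the count over all genes was 0 without A2A-325, GFP-316 or GFP-317, 1 without A2A-322, 830 without A2A-321 and 1286 without GFP-319. The difference of log2 FC for Ttr, CD11b minus ACSA-2, was -2.88 ± 2.93 (SE, 12 libraries, edgeR adjusted p = 0.627). For the comparison of the vectors within the CD11b fraction, on simulated counts with the means and dispersion of its 6 libraries, edgeR called 0 of 187 genes changed by a log2 FC of 2 and 108 of 179 changed by 4. In the latter it also called 11 of 15959 unchanged genes. Genes were drawn independently, so the shift that many genes share between Ttr-rich and Ttr-poor libraries was not simulated. These counts therefore do not give the sensitivity of the real comparison.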

How the data were processed

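The deposited counts are whole reads per Ensembl gene. The authors made these count values from single-end reads of 50 bases of amplified full-length cDNA (SMART-Seq, polyadenylated RNA) with cutadapt 1.10, STAR 2.5.3 on mm10 (GRCm38) and HTSeq 0.6.1p1 with Ensembl annotation 102, keeping reads unique to 1 gene. The strand setting was not given in the sources used here. Reads carry no molecular identifiers, so PCR duplicates are counted. Of 30359 and 27866 gene identifiers in the CD11b and ACSA-2 tables, 30289 and 27813 were found in GENCODE vM21 (GRCm38), which gave symbols, positions and union exon lengths. Libraries were grouped from the sample labels. Replicates of a group differed beyond sampling noise (chi-square per degree of freedom at least 55.5).

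CPM is the count over the library's total. Class differences are of mean log2 CPM (TMM, prior count 2) with no test. Vectors were compared with edgeR 4.0.16 (R 4.3.3, TMM, filterByExpr, robust quasi-likelihood test, adjusted p under 0.05, log2 FC beyond 0.32), with DESeq2 1.42.0, other scaling, filters and prior counts, and each library left out as alternatives. Code was tested on simulated data. Python 3.11.15 with matplotlib 3.10.9 made the figures.

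Members, gene lists and tests were chosen with earlier results of these data known. Named are the rule's 6 genes, the 2 most abundant genes of each role, the most abundant gene of each other list, the 20 and 10 unlisted genes with the widest gaps (at least 5 CPM in each library of the higher class), called choroid plexus genes, and the 10 genes most like Ttr. Other named genes were chosen after their values were seen. A member of the choroid plexus list is counted but not reported by name here.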

Additional observations from a re-analysis of the deposited data

Results flagged for a closer look

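The test of whether the vector difference itself differed between the CD11b and ACSA-2 fractions called 75 of 18602 genes (edgeR interaction term), 68 with a higher and 7 with a lower log2 FC in CD11b, and this count was 0 when any 1 of the 3 Ttr-rich libraries was left out, 1 without A2A-322, 830 without A2A-321 and 1286 without GFP-319. None of the 75 was on the choroid plexus list, whose spread within each vector largely reflects the division of the CD11b libraries by Ttr.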

How the results depend on the processing

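Of 131 alternative values of the main results, 29 moved by more than the spread between libraries or, for a count, by over 1.5 times, and none changed sign. Of 286 for single genes 1 moved, 6 lost a call and 14 changed sign, all 14 being vector estimates that were not called under any setting. A value counted as not moved need not have held its size. In CD11b without A2A-325, Ttr at -10.44 in place of -2.26 ± 2.84 (SE) was counted so. Folr1 at -7.26 in place of -1.93 ± 2.15 (SE) was too. For the list's median log2 difference between the classes (8.11), a prior count of 10 gave 7.34. A minimum of 10 counts in every library gave 6.0015. It left 31 list genes, 29 of them separated in place of 51, since genes at or near 0 in a Ttr-poor library are dropped. The AAV-GFP libraries alone gave 7.15, and leaving out a library 7.52 to 8.18. Within AAV-GFP libraries the difference of Clic6 was 7.15 in place of 9.83. Leaving out a library gave 51 to 52 separated choroid plexus genes, 18 to 23 separated microglial markers and a microglial median of -2.16 to -1.45. Classes with fewer libraries separate more readily. The shares of all genes separated in these alternatives are not given here, so the counts have no background.

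DESeq2 called 502 of 17318 genes between vectors in CD11b, 1277 of 17908 in ACSA-2 and 1721 of 17857 in the interaction, the cause not being tested. In ACSA-2 it called 4 of 53 choroid plexus genes, a share like that of all genes. With no filter on low counts in ACSA-2, 2 of 53 list genes were called, beside 662 of 27866 genes in all. A minimum of 10 counts in every library called 2 of 38 list genes, beside 751 of 13593. Leaving out a library called 0 list genes and 272 to 448 genes in all. Without a library the log2 FC of Trpm3 was -1.12 to -0.87 (by library left out: -0.92 for GFP-303, -1.07 for GFP-306, -1.10 for GFP-307, -1.11 for A2A-309, -1.12 for A2A-310 and -0.87 for A2A-313) with no call. RLE size factors called 10 genes in the interaction, and leaving out a CD11b library 0 to 1286 (0 without A2A-325, GFP-316 or GFP-317, 1 without A2A-322, 830 without A2A-321 and 1286 without GFP-319). In CD11b, leaving out a library called 0 genes, and 0 list genes there and in the interaction. Leaving out a library gave log2 FC of -8.94 to 1.44 for Kl, -9.04 to 0.46 for Clic6 (0.17 without A2A-321 or A2A-322, 0.46 without GFP-316) and -9.96 to 0.11 for Trpm3 (0.11 without GFP-316) in CD11b, of -0.41 to 0.77 for Enpp2 and -0.25 to 0.45 for Kcnj13 in ACSA-2 (both negative without A2A-313 alone), and of -7.37 to 2.83 for Kl, -8.40 to 0.91 for Clic6 and -8.80 to 1.08 for Trpm3 in the interaction. The lowest values for CD11b and the interaction came without A2A-325, and without GFP-319 the interaction was -0.48 for Clic6 and -0.45 for Trpm3. The interaction for Clic6 was 0.09 with all libraries, -0.0095 by DESeq2 and -0.0269 with RLE size factors. No paired analysis was possible because the libraries of the 2 vectors share no replicate numbers. Counting error is widest for list genes at 0 to 3 counts in a Ttr-poor library, whose log2 differences depend on the prior count.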
